A study of Mus musculus with 8 samples.

Results

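Uridine phosphorylase 2, encoded by Upp2, was examined in mouse liver together with the other genes of pyrimidine breakdown, Upp1, Tymp, Cda, Dpyd, Dpys and Upb1. These 7 genes were taken by name from a table of 24545 rows, of which 17294 distinct features had a value above 0, and all 7 had 1 row each. The set was chosen by a readout, with the response of Upp2 to genotype and to LPS in these same libraries already known. The values of the 7 genes are therefore given as a description, and no p-value is printed for them. Calls among the 7 are counted beside the share over all features and are not a test of these genes. The 8 libraries came from livers of male C57Bl/6J mice in 4 groups of 2: ApoE-Cyp7a1 transgenic given LPS, ApoE-Cyp7a1 transgenic untreated, wild type given LPS and wild type untreated. LPS is bacterial lipopolysaccharide, an endotoxin, and was injected every day at 1.5 mg/kg for 7 days. The transgene is named ApoE-Cyp7a1 in the labels and described there as liver specific; Cyp7a1 encodes the enzyme that limits the rate at which bile acids are made, and the age of the mice, the number of founder lines and any injection given to the untreated mice are not stated. The submitters describe the 2 libraries of a group as biological replicates.

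Pyrimidine nucleosides are broken down in a fixed sequence of steps, for which liver is the main organ. Uridine phosphorylases cleave uridine to uracil and ribose 1-phosphate, and thymidine phosphorylase does the same for thymidine. Dihydropyrimidine dehydrogenase then reduces the free base, dihydropyrimidinase opens the ring, and beta-ureidopropionase releases beta-alanine from uracil or beta-aminoisobutyrate from thymine. The pathway helps to set the level of circulating uridine and clears fluoropyrimidine drugs. Mice have 2 uridine phosphorylase genes: Upp1 is broadly expressed and is known to be induced by inflammatory cytokines in mouse cells, and Upp2 is known mainly from liver.

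On the GRCm38 assembly (mm10) with the GENCODE annotation vM21, Upp2 (ENSMUSG00000026839.17) lies on the plus strand of chromosome 2, from 58567298 to 58792971, and Upp1 (ENSMUSG00000020407.13) on the plus strand of chromosome 11, from 9118103 to 9136170. Protein-coding transcripts of Upp2 begin at 2 separate places, at 58567387 and between 58754942 and 58755212, and the table has 1 value for the gene. Its span also holds Gm13558, a sense intronic transcript, and Gm13559, a processed pseudogene, on the same strand. The promoter windows of these starts, from 250 bases before to 50 bases after each start as given by RefSeq on GRCm38.p6, are printed because the table cannot say which start the changing transcripts used, and 1 window of Upp1 is printed beside them. Capitals mark a CCAAT match in the upstream Upp2 window and a TATAAA match in the downstream one.
Upp2 upstream start, plus strand, chr2:58567084-58567383: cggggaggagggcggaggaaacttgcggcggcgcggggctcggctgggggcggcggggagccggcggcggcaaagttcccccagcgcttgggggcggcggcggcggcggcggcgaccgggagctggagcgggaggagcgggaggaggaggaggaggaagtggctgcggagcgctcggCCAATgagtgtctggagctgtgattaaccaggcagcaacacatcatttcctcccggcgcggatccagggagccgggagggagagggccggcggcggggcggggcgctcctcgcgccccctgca
Upp2 downstream start, plus strand, chr2:58754934-58755233: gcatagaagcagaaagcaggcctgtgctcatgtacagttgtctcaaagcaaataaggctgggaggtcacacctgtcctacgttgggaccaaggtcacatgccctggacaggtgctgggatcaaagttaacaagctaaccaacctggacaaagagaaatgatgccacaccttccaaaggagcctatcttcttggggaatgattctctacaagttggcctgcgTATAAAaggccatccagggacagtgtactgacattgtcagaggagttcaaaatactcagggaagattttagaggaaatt
Upp1, plus strand, chr11:9117853-9118152: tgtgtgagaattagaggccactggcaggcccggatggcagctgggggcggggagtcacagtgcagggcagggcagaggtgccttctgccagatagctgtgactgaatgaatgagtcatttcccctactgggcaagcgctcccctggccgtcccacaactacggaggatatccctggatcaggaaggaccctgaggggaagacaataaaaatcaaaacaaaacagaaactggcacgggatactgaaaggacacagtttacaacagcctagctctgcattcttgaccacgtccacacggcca

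The 2 starts of Upp2 sit in unlike sequence. The upstream window held 37 CpG dinucleotides at a GC content of 75.3%, and 5.6% of all 32851 windows in the table held at least as many. The downstream window held 2 CpG at a GC content of 47.0%, against a median of 7 CpG over all windows. It had a TATAAA 29 bases before its start, at -29, and the upstream window had a CCAAT at -73. On either strand, TATAAA occurred in 13.6% and CCAAT in 37.4% of all windows, so neither match is rare. The Upp1 window had 8 CpG and none of the 4 motifs searched. The other motifs, CAAAGTCCA and TTGCGCAA, were in 0.475% and 0.183% of all windows and in none of the 9 windows found for 6 of the 7 genes; Dpys is not among them. A match is a description of letters, and the lack of one says only that those letters are not in these windows.

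Levels are in FPKM, sequenced fragments per kilobase of transcript and per unit of mapped fragments, so levels may be set side by side between genes. Differences are on the scale of log2(FPKM + 1), each with its standard error from 1 limma fit to all 11463 features that reached 1 FPKM in at least 2 libraries, which all 7 genes did. A feature was called where its Benjamini-Hochberg adjusted p was under 0.05 over all 11463. As a check of the genotype labels, Cyp7a1 had 73.5 and 70.2 FPKM in transgenic LPS livers, 64.7 and 78.5 FPKM in transgenic untreated livers, 19.9 and 27.9 FPKM in wild-type LPS livers and 24.9 and 49.1 FPKM in wild-type untreated livers, so each transgenic library was above each wild-type one. The libraries' FPKM values summed to between 406668 and 580051, lower in all 4 LPS libraries than in the 4 untreated ones; fragment totals are not in the table. Of 14 hepatocyte markers, 13 had values, and the row for Alb was at 0 in all 8 libraries. Their summed level was 24060 to 26620 FPKM in transgenic LPS, 27850 to 31630 FPKM in transgenic untreated, 24880 to 25270 FPKM in wild-type LPS and 36170 to 40580 FPKM in wild-type untreated livers. Of these 13, 2 were called lower with LPS in wild type, where 21.6% of all features were called. In transgenic mice 1 was called higher and 1 lower with LPS, where 26.5% were called. In whole liver, fewer cells of a type and less RNA per cell cannot be told apart.

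Upp2 was lower in untreated transgenic liver than in untreated wild-type liver, and LPS moved it in opposite directions in the 2 genotypes. It had 122.4 and 130.6 FPKM in transgenic LPS livers and 58.2 and 57.4 FPKM in transgenic untreated livers. It had 134.0 and 175.9 FPKM in wild-type LPS livers and 312.6 and 280.8 FPKM in wild-type untreated livers. Both transgenic LPS libraries were above both transgenic untreated ones, both wild-type LPS libraries were below both wild-type untreated ones, and the 4 groups did not overlap at all.

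**Figure D1:**
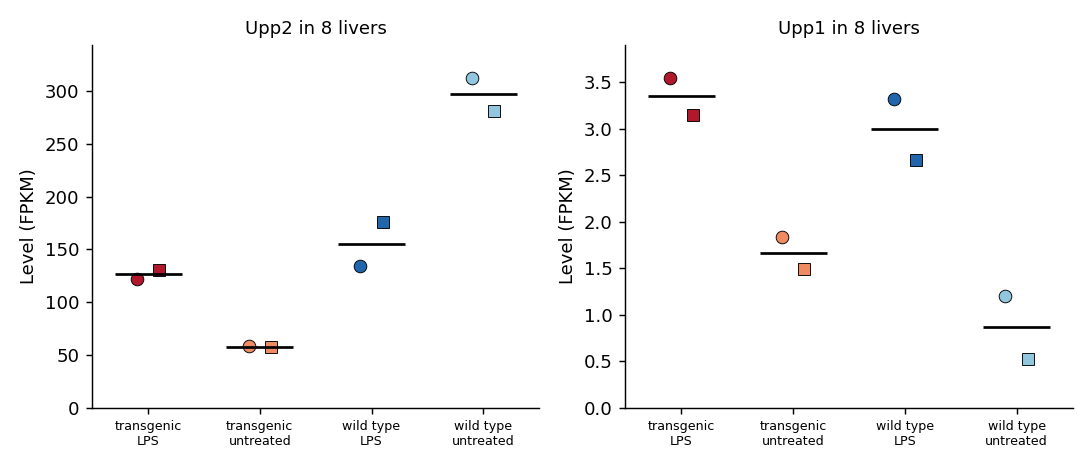
Level of Upp2 (left) and Upp1 (right) in FPKM for each of the 8 livers, by group; circles are replicate 1, squares replicate 2 and bars group means. Upp2 lies between 57.4 and 58.2 FPKM in transgenic untreated livers and between 280.8 and 312.6 FPKM in wild-type untreated livers, with all 4 LPS livers between them, while Upp1 is higher in the LPS livers of both genotypes.

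From low to high, the Upp2 means were 57.8 ± 0.584 FPKM in transgenic untreated, 126.5 ± 5.83 FPKM in transgenic LPS, 154.9 ± 29.6 FPKM in wild-type LPS and 296.7 ± 22.5 FPKM in wild-type untreated livers (SD, n = 2 each). The neighbours transgenic LPS and wild-type LPS differ by less than the SD of the wild-type LPS libraries, and the other neighbours are further apart than either group's SD. Between transgenic and wild-type untreated livers the difference was -2.34 ± 0.18 (SE), a level 5.13 times as high in wild type. In that comparison 2 of the 11463 features had a lower difference. As Upp2 was chosen with this response known, its place among all features is a description and carries no weight as a test. Under LPS the genotype difference was -0.28 ± 0.18 (SE), with a mean 1.22 times as high in wild type.

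The LPS difference of Upp2 was 1.12 ± 0.18 (SE) in transgenic mice, where the LPS mean was 2.19 times the untreated one. It was -0.94 ± 0.18 (SE) in wild-type mice, where the untreated mean was 1.92 times the LPS one. The change in transgenic minus the change in wild type was 2.06 ± 0.25 (SE), and 44 of 11463 features had a larger value. That place is likewise a description, since the gene was chosen for this response. The pattern of LPS above untreated in both transgenic libraries and below it in both wild-type ones was found in 315 features, 2.75% of those tested, and 11 features, 0.096%, were called higher in transgenic and lower in wild type. As the genotype and LPS differences share control libraries, a low untreated transgenic level enters both the LPS difference in transgenic mice and the untreated genotype difference. Leaving out any 1 library kept the sign of each: 1.07 to 1.16 for LPS in transgenic, -1.14 to -0.75 for LPS in wild type, and -2.42 to -2.26 for the untreated genotype difference.

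**Figure D2:**
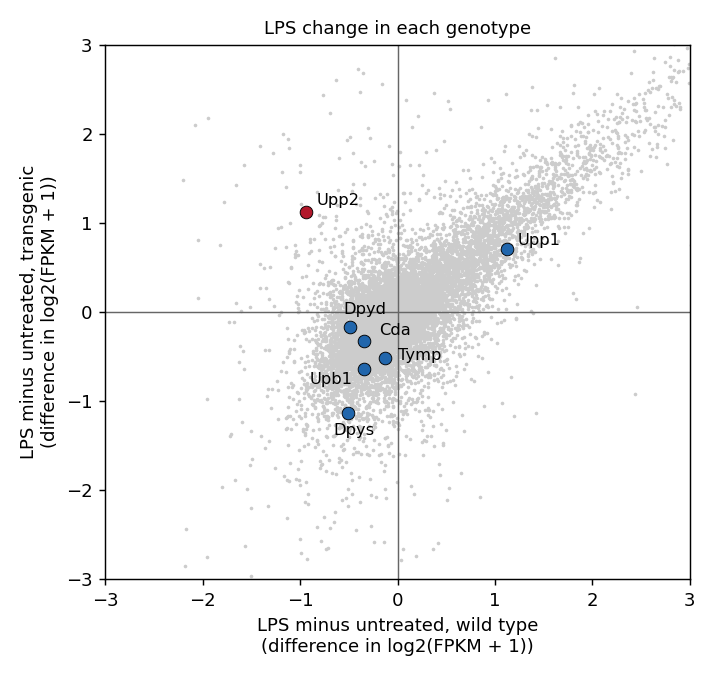
LPS minus untreated in transgenic mice (vertical) against LPS minus untreated in wild-type mice (horizontal), as differences in log2(FPKM + 1), for the features tested (grey) and the 7 genes (coloured); 98 features lie outside the axes. Upp2 (red) lies at 1.12 on the vertical and -0.94 on the horizontal axis, Upp1 is positive on both, and the other 5 genes are negative on both.

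Marker sums of several other cell types were higher in LPS than in untreated libraries, while those of exocrine pancreas varied widely within groups. The 10 exocrine pancreas markers summed to 146.8 and 25.1 FPKM in transgenic LPS, 5171 and 1083 FPKM in transgenic untreated, 204.8 and 83.4 FPKM in wild-type LPS and 1397 and 84.2 FPKM in wild-type untreated libraries. All 10 were called lower with LPS in transgenic mice, and none was called with LPS in wild type. The 9 macrophage marker rows not shared with another gene summed to 1015 to 1055 FPKM in transgenic LPS, 98.97 to 145.4 FPKM in transgenic untreated, 1165 to 1214 FPKM in wild-type LPS and 77.0 to 150.6 FPKM in wild-type untreated livers, and 8 of the 9 were called higher with LPS in each genotype. The 8 neutrophil rows summed to 179.8 to 280.0 FPKM in transgenic LPS, 3.96 to 6.73 FPKM in transgenic untreated, 210.8 to 356.8 FPKM in wild-type LPS and 8.12 to 8.86 FPKM in wild-type untreated livers. The 7 endothelial markers summed to 237.7 to 239.4 FPKM in transgenic LPS, 89.6 to 92.5 FPKM in transgenic untreated, 220.0 to 242.2 FPKM in wild-type LPS and 92.8 to 108.6 FPKM in wild-type untreated livers, and 6 of 7 were called higher with LPS in each genotype. The 8 stellate cell and fibroblast markers summed to 322.2 to 337.4 FPKM in transgenic LPS, 156.5 to 165.8 FPKM in transgenic untreated, 280.0 to 382.9 FPKM in wild-type LPS and 158.3 to 192.5 FPKM in wild-type untreated livers, with 6 of 8 called higher in transgenic and 5 in wild type. The 7 B and plasma cell rows summed to 125.1 to 150.5 FPKM in transgenic LPS, 57.5 to 79.2 FPKM in transgenic untreated, 145.9 to 157.7 FPKM in wild-type LPS and 68.8 to 78.9 FPKM in wild-type untreated livers, with 6 of 7 called higher in each genotype. Of the T and NK cell markers 1 was tested, and it was called higher in each genotype. None of 4 tested cholangiocyte markers was called. The part of these sums in the results was not tested.

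Upp1, which encodes the other uridine phosphorylase, was a minor transcript in every library and was higher with LPS in both genotypes. It had 3.55 and 3.15 FPKM in transgenic LPS, 1.84 and 1.49 FPKM in transgenic untreated, 3.32 and 2.67 FPKM in wild-type LPS and 1.21 and 0.522 FPKM in wild-type untreated livers. The LPS libraries were above the untreated ones in each genotype without overlap, and the 2 LPS groups overlapped each other. The LPS difference was 0.71 ± 0.20 (SE) in transgenic and 1.12 ± 0.20 (SE) in wild-type mice, and the difference between these changes was -0.41 ± 0.28 (SE). The untreated genotype difference was 0.54 ± 0.20 (SE), opposite in sign to that of Upp2.

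The balance of the 2 uridine phosphorylases set untreated wild-type liver apart from the other 3 groups. Per library, Upp2 was 34.5 and 41.4 times Upp1 in transgenic LPS livers and 31.7 and 38.5 times in transgenic untreated livers. It was 40.3 and 65.9 times Upp1 in wild-type LPS livers and 259 and 538 times in wild-type untreated livers. As a share of the summed level of both genes, Upp1 took 1.50% to 3.06% in the 6 transgenic or LPS livers, and 0.384% and 0.185% in the 2 wild-type untreated livers. The wild-type untreated ratios rest on Upp1 values near 1 FPKM or below, where the 2 libraries differed most relative to their mean.

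Cda encodes cytidine deaminase, which turns cytidine into uridine and so feeds the uridine phosphorylase step, and lies on the minus strand of chromosome 4 from 138338424 to 138367992. It had 14.3 and 9.06 FPKM in transgenic LPS, 17.1 and 12.4 FPKM in transgenic untreated, 6.72 and 8.43 FPKM in wild-type LPS and 10.7 and 8.99 FPKM in wild-type untreated livers. All 4 transgenic libraries were above the wild-type libraries of the same treatment. The genotype difference was 0.54 ± 0.25 (SE) under LPS and 0.53 ± 0.25 (SE) in untreated mice. The LPS difference was -0.33 ± 0.25 (SE) in transgenic mice, whose groups overlapped, and -0.34 ± 0.25 (SE) in wild type, whose groups did not.

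Tymp encodes thymidine phosphorylase, and its values cannot be told apart from those of 2 neighbours, since the rows for Tymp, Sco2 and Odf3b are identical. Tymp lies on the minus strand of chromosome 15 from 89371931 to 89377039, Sco2 overlaps it on the same strand from 89371637 to 89373846, and Odf3b follows from 89377449 to 89379282. The protein-coding gene Ncaph2, from 89355719 to 89372826 on the opposite strand, also overlaps Tymp. As the strand setting of the counting is not stated, reads of Ncaph2 in the overlap cannot be told apart either. The shared row had 116.6 and 53.7 FPKM in transgenic LPS, 114.4 and 113.8 FPKM in transgenic untreated, 117.0 and 68.6 FPKM in wild-type LPS and 105.3 and 91.1 FPKM in wild-type untreated livers. In both LPS groups replicate 2 was well below replicate 1, and LPS overlapped untreated in both genotypes. The LPS difference was -0.52 ± 0.37 (SE) in transgenic and -0.13 ± 0.37 (SE) in wild type, and both changed sign on leaving out 1 library, replicate 2 of the LPS group (to 0.03 and 0.25).

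The 3 enzymes of the reductive pathway were lower with LPS in each genotype, by amounts that differed between genes. Dpyd encodes dihydropyrimidine dehydrogenase, the rate-limiting enzyme of the pathway, and lies on the plus strand of chromosome 3 from 118562129 to 119432924. It had 137.2 and 144.0 FPKM in transgenic LPS, 154.5 and 161.2 FPKM in transgenic untreated, 135.1 and 153.1 FPKM in wild-type LPS and 180.4 and 225.4 FPKM in wild-type untreated livers. The wild-type untreated libraries were the 2 highest, and the 2 LPS groups overlapped. The LPS difference was -0.17 ± 0.17 (SE) in transgenic and -0.48 ± 0.17 (SE) in wild type. In transgenic mice it is no larger than its error and turns positive under rescaling of the libraries to the same sum (0.05) and under quantile normalization (0.22). In untreated mice the genotype difference was -0.35 ± 0.17 (SE).

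Dpys encodes dihydropyrimidinase, which opens the reduced ring, and lies on the minus strand of chromosome 15 from 39768487 to 39857470. The antisense gene Gm16291 lies within it, and as the strand setting of the counting is not stated, reads of the 2 cannot be told apart. It had 42.4 and 79.2 FPKM in transgenic LPS, 132.7 and 124.4 FPKM in transgenic untreated, 88.7 and 93.5 FPKM in wild-type LPS and 152.6 and 111.0 FPKM in wild-type untreated livers. The LPS libraries were below the untreated ones in each genotype, and both transgenic LPS libraries were below both wild-type LPS ones. The LPS difference was -1.13 ± 0.29 (SE) in transgenic and -0.51 ± 0.29 (SE) in wild type. In transgenic mice its size depends on replicate 1 of the LPS group, and was -0.69 without it and -1.58 without replicate 2. Over all alternative settings the wild-type LPS difference of Dpys ranged from -0.74 to -0.25. The untreated genotype difference was -0.02 ± 0.29 (SE), and those groups overlapped.

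Upb1 encodes beta-ureidopropionase, the last enzyme of the pathway, and lies on the plus strand of chromosome 10 from 75401115 to 75441679, within the span of Gucd1 on the opposite strand, to which the same limit applies. It had 42.1 and 60.3 FPKM in transgenic LPS, 80.3 and 78.3 FPKM in transgenic untreated, 67.0 and 71.3 FPKM in wild-type LPS and 95.9 and 80.8 FPKM in wild-type untreated livers. Each of these groups was separate from the next. The LPS difference was -0.64 ± 0.20 (SE) in transgenic and -0.34 ± 0.20 (SE) in wild type. Without replicate 1 of the transgenic LPS group the first was -0.39, and without replicate 2 it was -0.90. Over all alternative settings the wild-type LPS difference ranged from -0.47 to -0.09. Upb1 followed Dpys closely over the 8 libraries, with a Pearson r of 0.986 on the log scale.

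**Figure D3:**
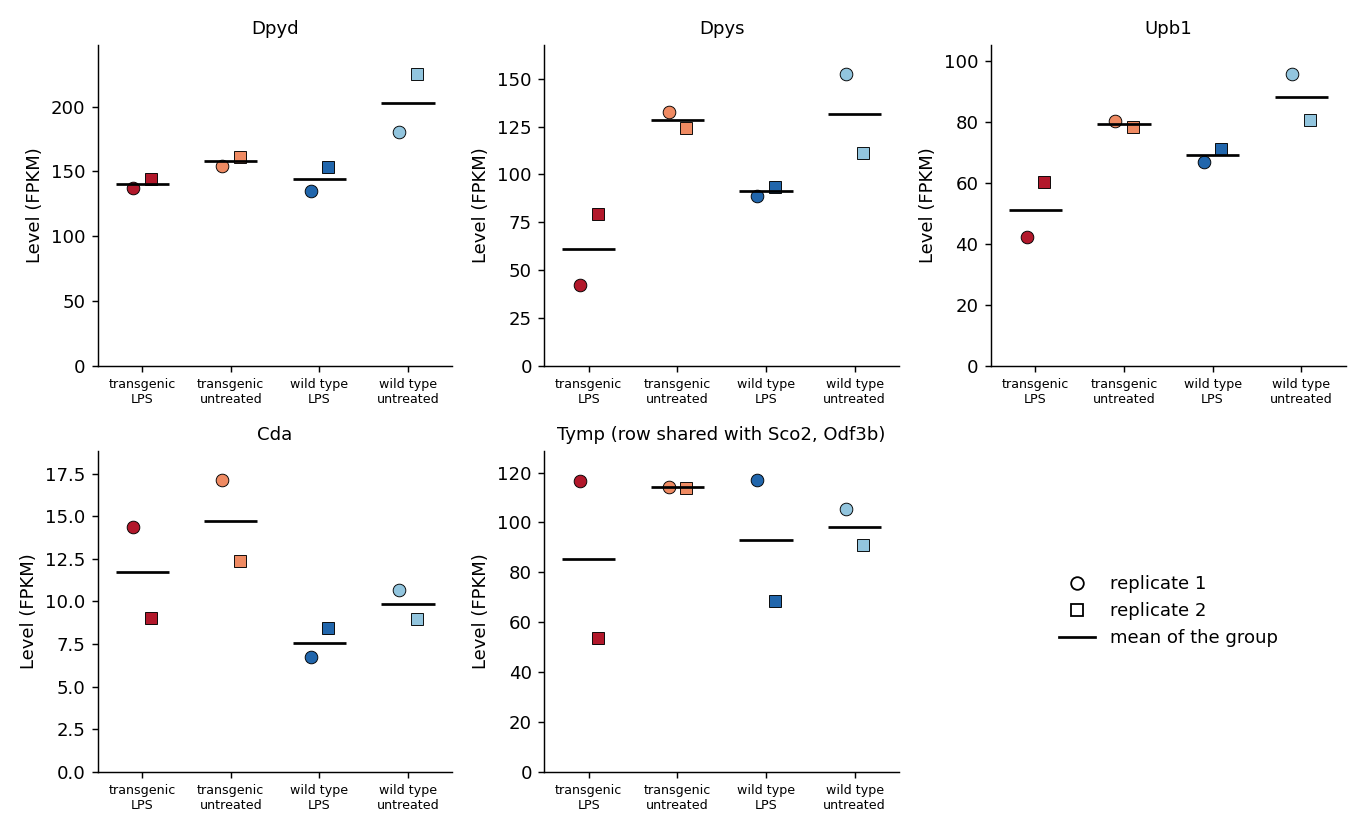
Level in FPKM of Dpyd, Dpys, Upb1, Cda and the row shared by Tymp, Sco2 and Odf3b in each of the 8 livers, by group, with bars at group means. Dpys and Upb1 are lowest in transgenic LPS replicate 1, at 42.4 and 42.1 FPKM, and the Tymp row is lowest in replicate 2 of each LPS group.

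Summed, Dpyd, Dpys and Upb1 reached 221.7 and 283.5 FPKM in transgenic LPS, 367.5 and 363.9 FPKM in transgenic untreated, 290.7 and 317.9 FPKM in wild-type LPS and 428.8 and 417.1 FPKM in wild-type untreated livers. The LPS sums were below the untreated sums in each genotype, and the transgenic sums below the wild-type sums of the same treatment. Upp2 against Dpyd, the enzyme that takes its product, gave a ratio of 0.892 and 0.907 in transgenic LPS, 0.377 and 0.356 in transgenic untreated, 0.992 and 1.15 in wild-type LPS and 1.73 and 1.25 in wild-type untreated livers. Among the 7 genes Upp2 had the highest level in 3 of the 4 wild-type libraries, the second highest in the fourth and in both transgenic LPS libraries, and ranked 5 of 7 in both transgenic untreated libraries. These ranks count the row shared by Tymp, Sco2 and Odf3b as Tymp, and that row was above Upp2 in both transgenic untreated libraries. Over the 8 libraries the Pearson r of Upp2 was 0.519 with Dpyd, 0.048 with Dpys and 0.202 with Upb1, while that of Dpyd was 0.545 with Dpys and 0.626 with Upb1. These correlations are over libraries that share groups and scaling, and are given without a p.

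**Figure D4:**
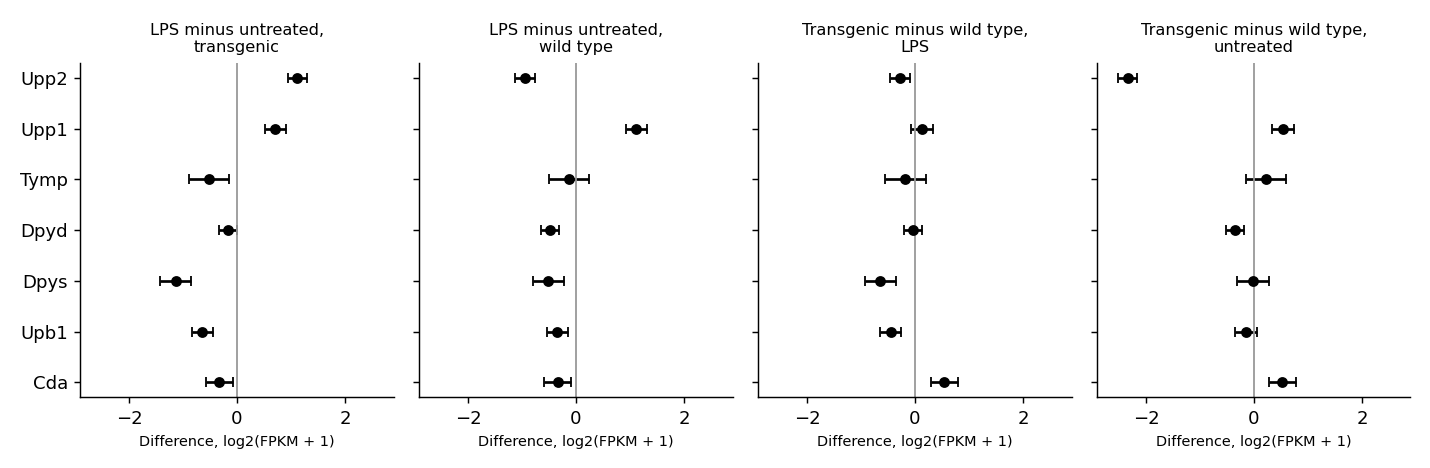
Differences in log2(FPKM + 1) for the 7 genes in the 4 comparisons, with bars of 1 standard error from the limma fit. Upp2 is at 1.12 for LPS in transgenic, -0.94 for LPS in wild type, -0.28 for genotype under LPS and -2.34 for genotype in untreated mice, while the other 6 genes lie between -1.13 and 1.12.

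Set against all features, the counts over the 7 genes read as follows, and since the genes were chosen on these comparisons nothing is drawn from them. With LPS in transgenic mice 2 were called higher (Upp2, Upp1) and 2 lower (Dpys, Upb1), where 26.5% of features were called, and 5 of 7 did not overlap between groups, against 68.0% of features. With LPS in wild type 1 was called higher (Upp1) and 1 lower (Upp2), where 21.6% were called, and 6 did not overlap, against 64.5%. Between transgenic and wild-type LPS livers limma called none of the 7 and 0.0% of all features, although 1402 features had an unadjusted p under 0.05; 4 of 7 did not overlap, against 52.1%. Between transgenic and wild-type untreated livers Upp2 was 1 of 7 features called in all, 0.0611% of those tested, and 6 of the 7 genes did not overlap, against 29.5%. That call of Upp2 ended with no filter and without either transgenic untreated library, while its difference stayed between -2.42 and -2.26 on leaving out any 1 library. For the difference between the 2 LPS changes none of the 7 and 0.00872% of features were called. The median difference over the 7 genes was -0.33 for LPS in transgenic and -0.34 for LPS in wild type, against -0.04 and -0.05 over all features tested. The number called in transgenic LPS is 2 rather than 4 under quantile normalization, with no filter, with a filter of 5 FPKM or with only the 2 groups in the fit. It is 3 with a pseudocount of 0.1 FPKM, on rescaling to the same sum or with a replicate block. Most of the calls in transgenic mice also ended in several fits without 1 library. Those of Upp1 and Upp2 in wild type ended without wild-type LPS replicate 1. On leaving out any 1 library Upp1 ranged from 0.62 to 0.80 in transgenic and from 0.85 to 1.39 in wild type. Upp2 ranged from -1.14 to -0.75 in wild type.

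The genes nearest to Upp2 in pattern over the 8 libraries were Mrpl54, a mitochondrial ribosomal protein gene, at a Pearson r of 0.97, Glt1d1 at 0.939, Tango2 at 0.908, Cyp2c38, a cytochrome P450 gene, at 0.893 and Ccrn4l, the nocturnin gene, at 0.881. Mrpl54 had 28.0 and 28.9 FPKM in transgenic LPS, 25.7 and 24.2 FPKM in transgenic untreated, 30.2 and 31.1 FPKM in wild-type LPS and 35.8 and 32.4 FPKM in wild-type untreated livers. Its groups stood in the same order as those of Upp2 over a far smaller range. Cyp2c38 had 7.14 and 8.17 FPKM in transgenic LPS, 7.12 and 7.18 FPKM in transgenic untreated, 12.6 and 12.8 FPKM in wild-type LPS and 23.2 and 17.9 FPKM in wild-type untreated livers, so it was low in transgenic liver with or without LPS. The strongest inverse patterns were those of Fam84a at -0.925, Klhl8 at -0.922 and Eepd1, an endonuclease-domain gene, at -0.907. Eepd1 had 6.18 and 9.05 FPKM in transgenic LPS, 8.66 and 9.66 FPKM in transgenic untreated, 6.45 and 5.84 FPKM in wild-type LPS and 4.03 and 3.89 FPKM in wild-type untreated livers.

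Beyond the 7 genes, lists of the surrounding pathways were tested with LPS in each genotype; no gene of any of these lists was called between genotypes or for the difference between the LPS changes. The list on the metabolism of beta-alanine and beta-aminoisobutyrate, the products of Upb1, had 7 of 9 genes tested. With LPS in transgenic mice 6 fell and 1 rose, where 26.5% of all features were called, and in wild type 4 fell and 1 rose, where 21.6% were called. Its median difference was -0.84 in transgenic and -0.77 in wild type, against -0.04 and -0.05 over all features. Csad, which decarboxylates cysteine sulfinate toward hypotaurine and taurine, had 29.0 and 23.5 FPKM in transgenic LPS, 65.1 and 55.4 FPKM in transgenic untreated, 43.5 and 42.1 FPKM in wild-type LPS and 104.2 and 86.1 FPKM in wild-type untreated livers. It fell with LPS by 1.17 ± 0.18 in transgenic (SE, adjusted p = 0.00302, limma) and by 1.13 ± 0.18 in wild type (SE, adjusted p = 0.0032, limma). Cndp2, a cytosolic dipeptidase, rose by 0.64 in transgenic (adjusted p = 0.0285, limma) and by 1.06 in wild type (adjusted p = 0.00342, limma).

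The transaminases that remove the amino group of beta-alanine and beta-aminoisobutyrate, Abat and Agxt2, fell with LPS in transgenic mice. Abat had 59.1 and 88.0 FPKM in transgenic LPS, 122.0 and 138.6 FPKM in transgenic untreated, 95.0 and 96.7 FPKM in wild-type LPS and 147.8 and 156.2 FPKM in wild-type untreated livers. Its difference was -0.84 in transgenic (adjusted p = 0.022, limma) and -0.66 in wild type (adjusted p = 0.0577, limma). For Agxt2 it was -0.93 in transgenic (adjusted p = 0.00601, limma) and -0.44 in wild type (adjusted p = 0.0969, limma). Whether LPS acted differently on either gene in the 2 genotypes did not pass the test of that difference, with an adjusted p of 0.849 for Abat and 0.512 for Agxt2 in limma.

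Aldh6a1, Hibch and Hibadh, which also serve valine breakdown, fell in both genotypes. Aldh6a1 changed by -0.69 in transgenic (adjusted p = 0.044, limma) and -0.77 in wild type (adjusted p = 0.0336, limma). Hibch changed by -0.84 in transgenic (adjusted p = 0.0472, limma) and -0.91 in wild type (adjusted p = 0.0427, limma). Hibadh, named after its values were seen, changed by -0.70 in transgenic (adjusted p = 0.016, limma) and -0.77 in wild type (adjusted p = 0.0107, limma). These calls are less firm than that of Csad, which held in every refit. In transgenic mice those of Abat, Aldh6a1, Hibch and Cndp2 ended without either wild-type LPS library, either transgenic untreated library or transgenic LPS replicate 1, with differences of -0.56 to -0.93 for Abat, -0.46 to -0.76 for Aldh6a1, -0.58 to -1.01 for Hibch and 0.54 to 0.72 for Cndp2 in those refits. That of Agxt2 ended without transgenic untreated replicate 2 (-0.92), and that of Hibadh without either transgenic untreated library (-0.78 and -0.61) or transgenic LPS replicate 1 (-0.58). In wild type those of Aldh6a1 and Hibch ended without untreated replicate 2 (-0.61 and -0.60), either LPS library or either transgenic untreated library, and that of Hibadh without either LPS library (-0.78 and -0.76). Rescaling to the same sum ended the calls of Aldh6a1 and Hibch in both genotypes, and quantile normalization those of Aldh6a1, Hibch and Hibadh in both and of Abat in transgenic mice. Sizes went as low as -0.35 for Aldh6a1 and -0.37 for Hibadh under quantile normalization, both in transgenic mice. With only the 2 groups in the fit, the calls of Abat, Aldh6a1, Hibch and Hibadh in transgenic mice ended; with no filter those of Hibch in both genotypes and Aldh6a1 in transgenic ended, and with a filter of 5 FPKM that of Hibch in transgenic.

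**Figure D5:**
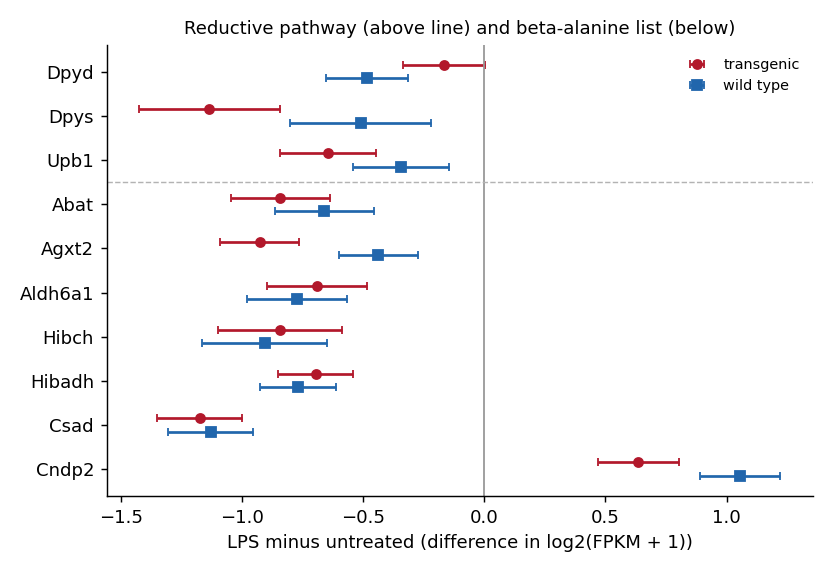
LPS minus untreated, as differences in log2(FPKM + 1) with bars of 1 standard error, for the reductive enzymes Dpyd, Dpys and Upb1 (above the line) and 7 genes of the beta-alanine list (below it), in transgenic (circles) and wild-type mice (squares). All points but those of Cndp2, at 0.64 and 1.06, are below 0.

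None of the 5 genes of de novo pyrimidine synthesis was called in either genotype in limma, where 2 had an unadjusted p under 0.05 in transgenic mice and 0 in wild type. Umps, which makes uridine monophosphate, had 3.24 and 5.21 FPKM in transgenic LPS, 6.18 and 6.64 FPKM in transgenic untreated, 6.39 and 6.56 FPKM in wild-type LPS and 6.14 and 5.61 FPKM in wild-type untreated livers, with an adjusted p of 0.0752 for LPS in transgenic (limma). Ctps2, a CTP synthase, had 4.55 and 3.27 FPKM in transgenic LPS, 2.66 and 3.08 FPKM in transgenic untreated, 3.29 and 2.75 FPKM in wild-type LPS and 2.64 and 3.76 FPKM in wild-type untreated livers, and its groups overlapped in wild type. Of 16 salvage and interconversion genes tested, 3 nucleoside diphosphate kinases fell with LPS in transgenic mice, against 26.5% of all features called, and 1 gene rose in wild type, against 21.6%, so neither share is above that of all features. Nme3 changed by -1.09 (adjusted p = 0.0384, limma), Nme1 by -0.50 (adjusted p = 0.0451, limma) and Nme6 by -0.47 (adjusted p = 0.0379, limma) in transgenic mice. Each of these 3 calls ended without either wild-type LPS library or either transgenic untreated library, those of Nme3 and Nme1 also without transgenic LPS replicate 1 (-1.19 and -0.39) and those of Nme3 and Nme6 also without replicate 2 (-0.99 and -0.35). All 3 were also lost on rescaling to the same sum (-0.93 for Nme3, -0.30 for Nme1 and -0.32 for Nme6), those of Nme1 and Nme6 with only the 2 groups in the fit, those of Nme3 and Nme6 with no filter, that of Nme6 with a filter of 5 FPKM and that of Nme1 under quantile normalization (-0.34). Dck, deoxycytidine kinase, rose by 0.99 in wild type (adjusted p = 0.00327, limma) and differed by 0.37 in transgenic (adjusted p = 0.114, limma).

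Among 12 tested nucleotidases and nucleotide hydrolases, 3 rose and 2 fell with LPS in transgenic mice, where 26.5% of all features were called, and 3 rose in wild type, a share close to the 21.6% of all features called. Samhd1, a deoxynucleotide triphosphohydrolase, had 13.2 and 12.5 FPKM in transgenic LPS, 6.17 and 5.48 FPKM in transgenic untreated, 13.4 and 13.5 FPKM in wild-type LPS and 5.40 and 3.76 FPKM in wild-type untreated livers, and rose by 1.02 in transgenic (adjusted p = 0.00443, limma) and 1.39 in wild type (adjusted p = 0.000921, limma). Entpd1 (CD39), which cleaves extracellular nucleotides, rose by 1.53 in transgenic (adjusted p = 0.00133, limma) and 1.30 in wild type (adjusted p = 0.00242, limma). Both are also expressed by macrophages, whose marker sums rose with LPS as given above, and their part here was not tested. Entpd5, an endoplasmic reticulum diphosphatase, fell by 1.18 in transgenic (adjusted p = 0.0069, limma), a call that ended without transgenic untreated replicate 2 (-1.17). The other that fell was Entpd8, named after its values were seen, at -0.79, a call lost without either transgenic untreated library (-0.81 and -0.77) or transgenic LPS replicate 1 (-0.66).

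Nt5e (CD73), which releases nucleosides from extracellular monophosphates, was the highest in transgenic LPS and the lowest in transgenic untreated livers. It had 4.47 and 5.02 FPKM in transgenic LPS, 2.54 and 1.88 FPKM in transgenic untreated, 3.33 and 2.74 FPKM in wild-type LPS and 4.31 and 4.02 FPKM in wild-type untreated livers. It rose with LPS by 0.85 in transgenic (adjusted p = 0.00734, limma), a call lost without transgenic untreated replicate 2 (0.70). In wild type its LPS difference was -0.36 (adjusted p = 0.141, limma). The difference between those changes was 1.21 ± 0.22 (SE, adjusted p = 0.285, limma), so it did not pass. Nt5c3b rose in wild type by 0.63 (adjusted p = 0.0468, limma), a call lost without any 1 of the wild-type libraries or of the transgenic untreated ones (0.45 to 0.82), under quantile normalization (0.29), with no filter or with only the 2 groups in the fit.

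Of 7 nucleoside transporters 3 were tested, and 2 rose with LPS in both genotypes, where 26.5% of all features were called in transgenic and 21.6% in wild type. The row shared by Slc28a2, a concentrative nucleoside transporter that takes purine nucleosides and uridine, and Gm14085 had 4.27 and 3.77 FPKM in transgenic LPS, 0.149 and 0.263 FPKM in transgenic untreated, 2.89 and 2.49 FPKM in wild-type LPS and 0.243 and 0.229 FPKM in wild-type untreated livers. Its LPS difference was 2.06 ± 0.13 in transgenic (SE, adjusted p = 0.000232, limma) and 1.57 ± 0.13 in wild type (SE, adjusted p = 0.000251, limma), and the pseudocount of 1 FPKM makes these smaller than the ratio of the levels. This row reached 1 FPKM only in LPS libraries, so it entered the test through the groups where it was high. Its rise, and the count of 2 in 3, are thus partly set by the filter. Slc29a3, a lysosomal equilibrative transporter, rose by 0.54 in transgenic (adjusted p = 0.0142, limma), a call lost without either transgenic untreated library (0.52 and 0.57) or under quantile normalization (0.28), and by 0.92 in wild type (adjusted p = 0.00129, limma). In purine breakdown 1 of 9 tested genes rose and 1 fell in each genotype, a share close to the 26.5% of all features called in transgenic and 21.6% in wild type. Ampd3, an AMP deaminase, rose by 1.08 in transgenic (adjusted p = 0.000876, limma) and 1.09 in wild type (adjusted p = 0.000668, limma). In the untreated libraries Ampd3 was at 0.58 to 0.74 FPKM, so it also entered the test only through the LPS libraries. The row shared by Pnp and Pnp2, purine nucleoside phosphorylase, differed by -0.48 in transgenic (adjusted p = 0.0331, limma) and -0.51 in wild type (adjusted p = 0.0299, limma), calls lost without any transgenic library, or either wild-type LPS library, in transgenic (-0.40 to -0.57), and without wild-type untreated replicate 1 (-0.46), either wild-type LPS library or either transgenic untreated library in wild type. Both were also lost on rescaling to the same sum (-0.29 in transgenic and -0.28 in wild type) and with only the 2 groups in the fit.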

How the data were processed

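RNA from 8 whole mouse livers was sequenced from stranded mRNA libraries, per the labels' protocols. The authors deposited 1 table of FPKM values per gene name, and the submitters' processing notes name TopHat2 2.1.0, Bowtie2 2.2.6, Cufflinks, Cuffdiff 2.2.1 and mm10; the sources used here do not give the annotation, the strand setting or how libraries were scaled. The table holds no counts, so depth is unknown and no counting interval is given. Low values did not step in whole reads (11.0% to 63.2% of them fell in 1 peak in the 7 libraries compared with the eighth), so no read counts were recovered. Of 24545 rows 6197 were at 0 in all libraries, 27 had names turned into dates, and for names that occurred more than once (492) the row with the highest sum was kept. Rows with identical values were joined into 1 feature.

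Differences came from limma 3.58.1 (R 4.3.3) on log2(FPKM + 1), with 1 mean per group, all 8 libraries in the fit, moderated variance with a trend, two-sided tests and Benjamini-Hochberg adjustment over 11463 features at 1 FPKM or more in at least 2 libraries. The code was tested on simulated data. The members, lists and tests were chosen with earlier results of these data known. Genes outside the 7 were named by a rule: from each list, those called in a contrast, up to 4 by size, or the 2 with the highest level where none was called; 5 most like and 3 least like Upp2 in pattern. Alternatives were another pseudocount (0.1 FPKM), no filter or one of 5 FPKM, libraries rescaled to the same sum, quantile normalization, only the 2 groups compared, a replicate block and leaving out each library. Promoter sequences are from RefSeq on GRCm38.p6; positions are from GENCODE vM21.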

Additional observations from a re-analysis of the deposited data

Results flagged for a closer look

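Upp2 differed with LPS by 1.12 in transgenic and by -0.94 in wild-type mice on the log2 scale. Both LPS libraries lay above both untreated ones in transgenic mice and below them in wild type. As this gene was chosen for that response, no p-value is given for the difference between these changes. Upp2 was not called for that difference in limma with all 8 libraries, where 0.00872% of features were called. On leaving out any 1 library its value ranged from 1.87 to 2.26. For 3 genes of the pathway lists, Umps, Nme6 and Nt5e, the LPS libraries also lay on opposite sides of the untreated ones in the 2 genotypes, and for these and 2 others, Samhd1 and Slc29a3, the transgenic libraries lay on opposite sides of the wild-type ones with and without LPS. The test of the difference, limma's interaction term, did not pass for any of the 5. Umps had LPS differences of -0.53 in transgenic and 0.12 in wild type, and genotype differences of -0.54 under LPS and 0.11 untreated (interaction adjusted p = 0.468, limma). Nme6 had -0.47 and 0.06 for LPS in transgenic and wild type, and -0.49 and 0.04 for genotype under LPS and untreated (adjusted p = 0.437, limma). Nt5e had 0.85 and -0.36 for LPS in transgenic and wild type, and 0.51 and -0.69 for genotype under LPS and untreated (adjusted p = 0.285, limma). Samhd1 had genotype differences of -0.06 under LPS and 0.31 untreated (adjusted p = 0.608, limma), and Slc29a3 of -0.06 under LPS and 0.31 untreated (adjusted p = 0.495, limma). Both of these rose with LPS in each genotype, and their genotype differences under LPS are smaller than their standard errors of 0.17 and 0.12. With 2 libraries a group, 315 of the 11463 features separated in the same opposite way as Upp2, and 250 in the reverse way.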

How the results depend on the processing

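With 2 libraries a group and no fragment counts, small changes and low genes are poorly resolved. No called difference, of the 7 genes or of a named pathway gene, changed sign under any alternative; 13 of 32 calls of named pathway genes held under all. The number of features called was 3034 for LPS in transgenic, 2481 for LPS in wild type, 7 for genotype in untreated mice, 0 for genotype under LPS and 1 for the interaction. With a filter of 5 FPKM it was 1835 for LPS in transgenic and 1379 in wild type; with no filter 0 for genotype untreated, 1 for genotype under LPS and 0 for the interaction; with quantile normalization 1 for genotype under LPS and 0 for the interaction; with only the 2 groups in the fit 22 for genotype untreated. Leaving out 1 library gave 1233 to 3641 for LPS in transgenic, 1219 to 3453 in wild type, 2 to 44 for genotype untreated, 0 to 423 for genotype under LPS and 0 to 276 for the interaction, the highest of the last 2 without transgenic LPS replicate 2; the cause was not tested. The replicate numbers are only names in the labels, and same-numbered deviations correlated at 0.043 to 0.459 between groups; with a replicate block the counts were 3314, 2769, 6, 0 and 2. Rescaling libraries to the same sum moved the median of all features to 0.16 for LPS in transgenic, 0.18 in wild type and 0.12 for genotype untreated; over all alternatives Upp2 ranged from 1.07 to 1.46, from -1.14 to -0.68 and from -2.42 to -2.22 in those comparisons.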
